A study of Pleurotus ostreatus with 53 samples.

Results

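The mRNA of mycelium of the dikaryon N001 of the oyster mushroom Pleurotus ostreatus was compared with that of mycelium of the monokaryons PC9 and PC15, each separately. The question was which genes of the dikaryon lay outside the levels of both monokaryons, and which monokaryon the rest lay closer to. The labels describe N001 as a dikaryotic strain (its strain field writes N0001) and PC9 and PC15 as monokaryotic strains. Each group had 3 libraries, so 9 of the 18 mRNA libraries of the series entered the tests, out of 53 libraries in all. The other mRNA groups were used for description: HyB (strain label N001_HyB), mycelium of a dikaryon made by mating PC9 with PC15, and the primordium and fruitbody of N001, each with 3 libraries. Of 11820 listed genes, 10828 reached 1 RPKM (mapped reads scaled by gene length and by library size) in at least 3 of the 9 libraries and were tested. The labels used here name no treatment, culture age or mating type.

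In basidiomycete fungi, a monokaryon carries a single type of haploid nucleus and a dikaryon carries a pair of nuclear types side by side in each cell, without fusing them until the basidia form. Mating of compatible monokaryons switches on the dikaryotic growth programme, which ends in primordia and fruiting bodies. PC9 and PC15 are known as the monokaryons recovered from N001 by removing one of its nuclei, so the dikaryon can be set against both of its nuclear types. Genes are known here by protein number only: 0 of the 11820 numbers matched an entry of the RefSeq table, so no gene is given a name, a role or a sequence.

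The 9 libraries held 22377121 to 30123569 mapped reads. Principal component 1 (50.7% of the variance over the tested genes) had all 3 N001 libraries at one end, and component 2 (35.6%) set PC9 apart from PC15. Replicate 1 stood apart in each group. Its correlation with the other libraries of its group was 0.946 in N001 mycelium, 0.909 to 0.918 in PC9 and 0.955 to 0.960 in PC15, against 0.978, 0.982 and 0.992 between those others. Across genes, the median absolute log2 distance of the 3 N001 libraries to PC9 was 0.71, 0.65 and 0.60, and their distance to PC15 was 0.89, 0.81 and 0.72. N001 mycelium was therefore nearer PC9 than PC15 in each of its 3 libraries by this measure.

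A gene was called when its Benjamini-Hochberg adjusted p was below 0.05 in limma's test on log2(RPKM + 1), fitted over all 10828 genes. N001 mycelium differed from PC9 in 4603 genes (42.5%), being higher in 2450 (22.6%) and lower in 2153 (19.9%). From PC15 it differed in 5767 genes (53.3%), being higher in 2153 (19.9%) and lower in 3614 (33.4%). PC9 and PC15 themselves differed in 5110 genes (47.2%), with PC9 higher in 1771 (16.4%) and lower in 3339 (30.8%). The split against PC15 depended on scaling. The median difference over all tested genes was -0.29 on the log2 scale for N001 minus PC15 and -0.02 for N001 minus PC9, and the excess of lower genes against PC15 was not kept under some rescalings. Quantile normalization kept it, with 2587 higher and 3536 lower genes. Median-ratio scaling gave 2708 higher and 2798 lower genes, edgeR on the recovered reads 2803 higher and 2625 lower, and DESeq2 2934 higher and 2997 lower. Against PC9, quantile normalization gave 2111 higher and 2974 lower genes.

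**Figure D1:**
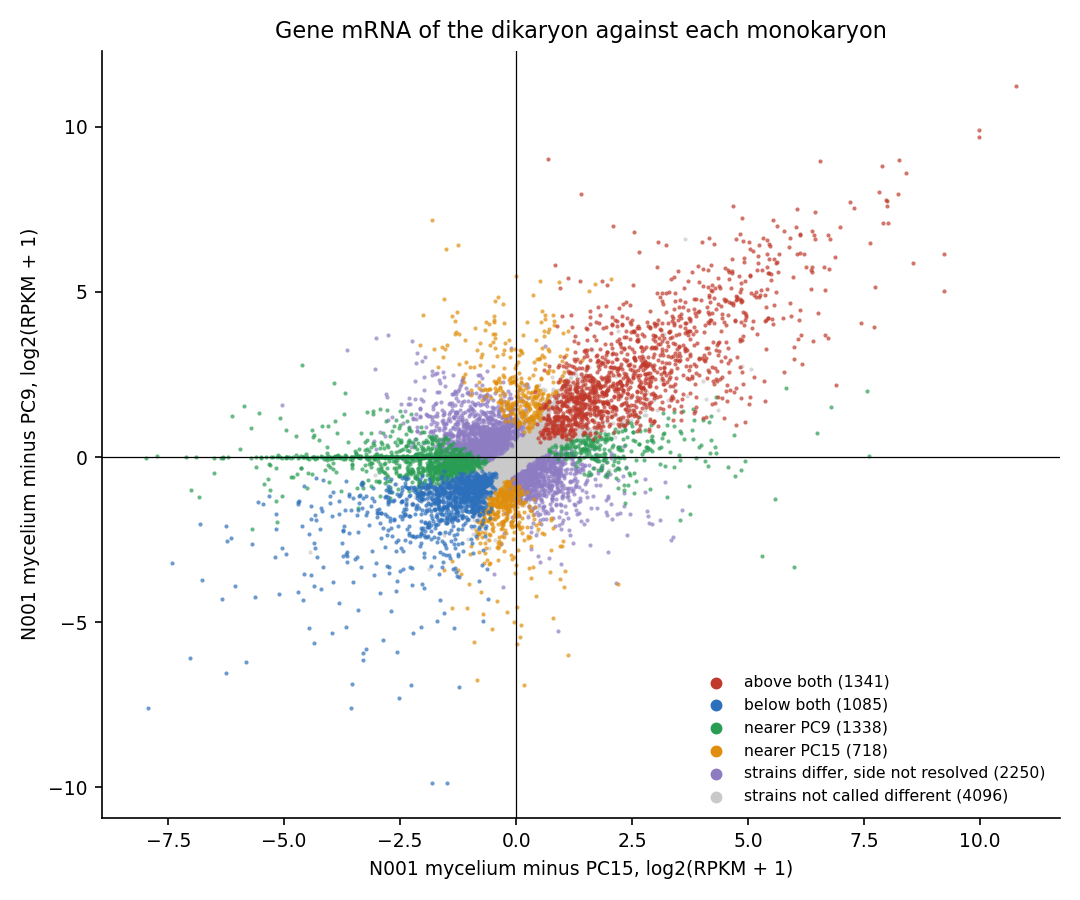
Each of the 10828 tested genes is 1 point, with N001 mycelium minus PC15 on the x axis and N001 mycelium minus PC9 on the y axis, both as differences of mean log2(RPKM + 1). Colours give the class. The 1341 genes above both monokaryons fill the upper right and reach higher values than the 1085 genes below both reach downwards. Genes nearer PC9 lie along the horizontal line and genes nearer PC15 along the vertical line. Both axes share the N001 libraries.

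In 1341 genes (12.4% of those tested) N001 mycelium was called above PC9 and above PC15. In 1264 of them all 3 N001 libraries were higher than all 6 monokaryon libraries, a separation that 1447 of all tested genes (13.4%) showed. The changes were large: 1134 of the 1341 genes were at least 1 log2 unit above both monokaryons, 622 at least 2, 324 at least 3 and 78 at least 5. The median difference was 2.32 on the log2 scale from PC9 and 2.27 from PC15, against -0.02 and -0.29 over all tested genes. Genes under 1 RPKM in all 6 monokaryon libraries could pass the filter through N001 alone. Those had little room to fall anywhere but above both, and how many there were was not counted. PC9 and PC15 were not called different from each other in 884 of the 1341 (65.9%), where 47.2% of all tested genes were called different. In these bulk samples, a change in the share of cells that express a gene and a change in RNA per cell cannot be told apart. Together these genes took 30.7%, 31.8% and 30.1% of the reads in genes in the N001 libraries, against 5.19%, 3.82% and 3.77% in PC9 and 4.23%, 3.80% and 3.57% in PC15.

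Gene 199491 (scaffold 6, positions 1618103 to 1620010) had the largest separation of the genes above both. It had 4733, 7753 and 10929 RPKM in N001 mycelium, against 3.28, 1.27 and 1.87 RPKM in PC9 and 5.47, 2.39 and 2.38 RPKM in PC15. No N001 library came near a monokaryon library. N001 was higher than PC9 by 11.25 ± 0.37 (SE) on the log2 scale and than PC15 by 10.78 ± 0.37, with limma adjusted p of 6.16e-08 and 2.93e-08. In HyB its level was 16.7 RPKM in replicate 1 and 2437 and 2142 RPKM in the other libraries. In primordium it had 4.28, 1.33 and 1.23 RPKM and in fruitbody 2.32, 1.03 and 1.62 RPKM, so within N001 the high level was seen in mycelium. Its nearest listed transposable element was 28947 bases away.

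Gene 1090179 (scaffold 7, positions 2075181 to 2076562) was next. It had 15364, 3541 and 3357 RPKM in N001 mycelium, against 14.5, 2.34 and 3.07 RPKM in PC9 and 8.56, 2.78 and 4.02 RPKM in PC15. Replicate 1 was the highest library of N001 and also of both monokaryons. The N001 libraries stayed above all 6 monokaryon libraries, by 9.90 ± 0.70 (SE) on the log2 scale over PC9 and 9.97 ± 0.70 over PC15 (limma adjusted p of 3.51e-06 and 2.06e-06). Unlike gene 199491, it stayed high in the other N001 stages, with 8712, 6212 and 6195 RPKM in primordium and 7314, 9436 and 5120 RPKM in fruitbody. HyB had 86.3, 20.4 and 20.4 RPKM.

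Genes below both monokaryons numbered 1085 (10%), and in 1054 of them all N001 libraries were lower than all 6 monokaryon libraries, as in 1660 of all tested genes (15.3%). Their distances were smaller than those of the genes above both, a class that genes passing the filter through N001 alone could enter. Of the 1085, 566 were at least 1 log2 unit below both, 112 at least 2, 40 at least 3 and 4 at least 5. The median difference was -1.21 on the log2 scale from PC9 and -1.32 from PC15. PC9 and PC15 were not called different in 738 of the 1085 (68.0%), where 47.2% of all tested genes were called different. These genes took 4.02%, 4.36% and 4.73% of the reads in genes in N001 mycelium, against 18.8%, 17.2% and 18.3% in PC9 and 16.4%, 16.97% and 17.4% in PC15. The count rested on PC9 replicate 1 more than any other: without that library it was 1715 genes, of which 1039 were among the 1085, while the count above both was 1551. Without replicate 1 of all 3 groups, 1868 genes were below both and 1994 above both.

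Gene 1095975 (scaffold 3, positions 1907130 to 1908211) was the most strongly lowered by the rule used. It had 8.97, 7.42 and 19.4 RPKM in N001 mycelium, against 523, 3916 and 5964 RPKM in PC9 and 1858, 3439 and 3948 RPKM in PC15. PC9 replicate 1 was the lowest monokaryon library and still far above the N001 range. The difference was -7.59 ± 0.79 (SE) on the log2 scale from PC9 and -7.94 ± 0.79 from PC15 (limma adjusted p of 4.79e-05 and 2.28e-05). HyB had 592, 82.5 and 90.1 RPKM, all above the N001 range, and its replicate 1 was inside the PC9 range. Gene 162890 (scaffold 10, positions 213127 to 213936) had 16.2, 19.8 and 23.4 RPKM in N001 mycelium, against 692, 5413 and 1899 RPKM in PC9 and 1037, 2755 and 1376 RPKM in PC15. The groups did not overlap, with differences of -6.54 ± 0.64 (SE) and -6.26 ± 0.64 on the log2 scale (limma adjusted p of 3.40e-05 and 2.89e-05). Both genes stayed low in the other N001 stages, between 4.18 and 30.8 RPKM for 1095975 and between 7.87 and 15.6 RPKM for 162890.

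**Figure D2:**
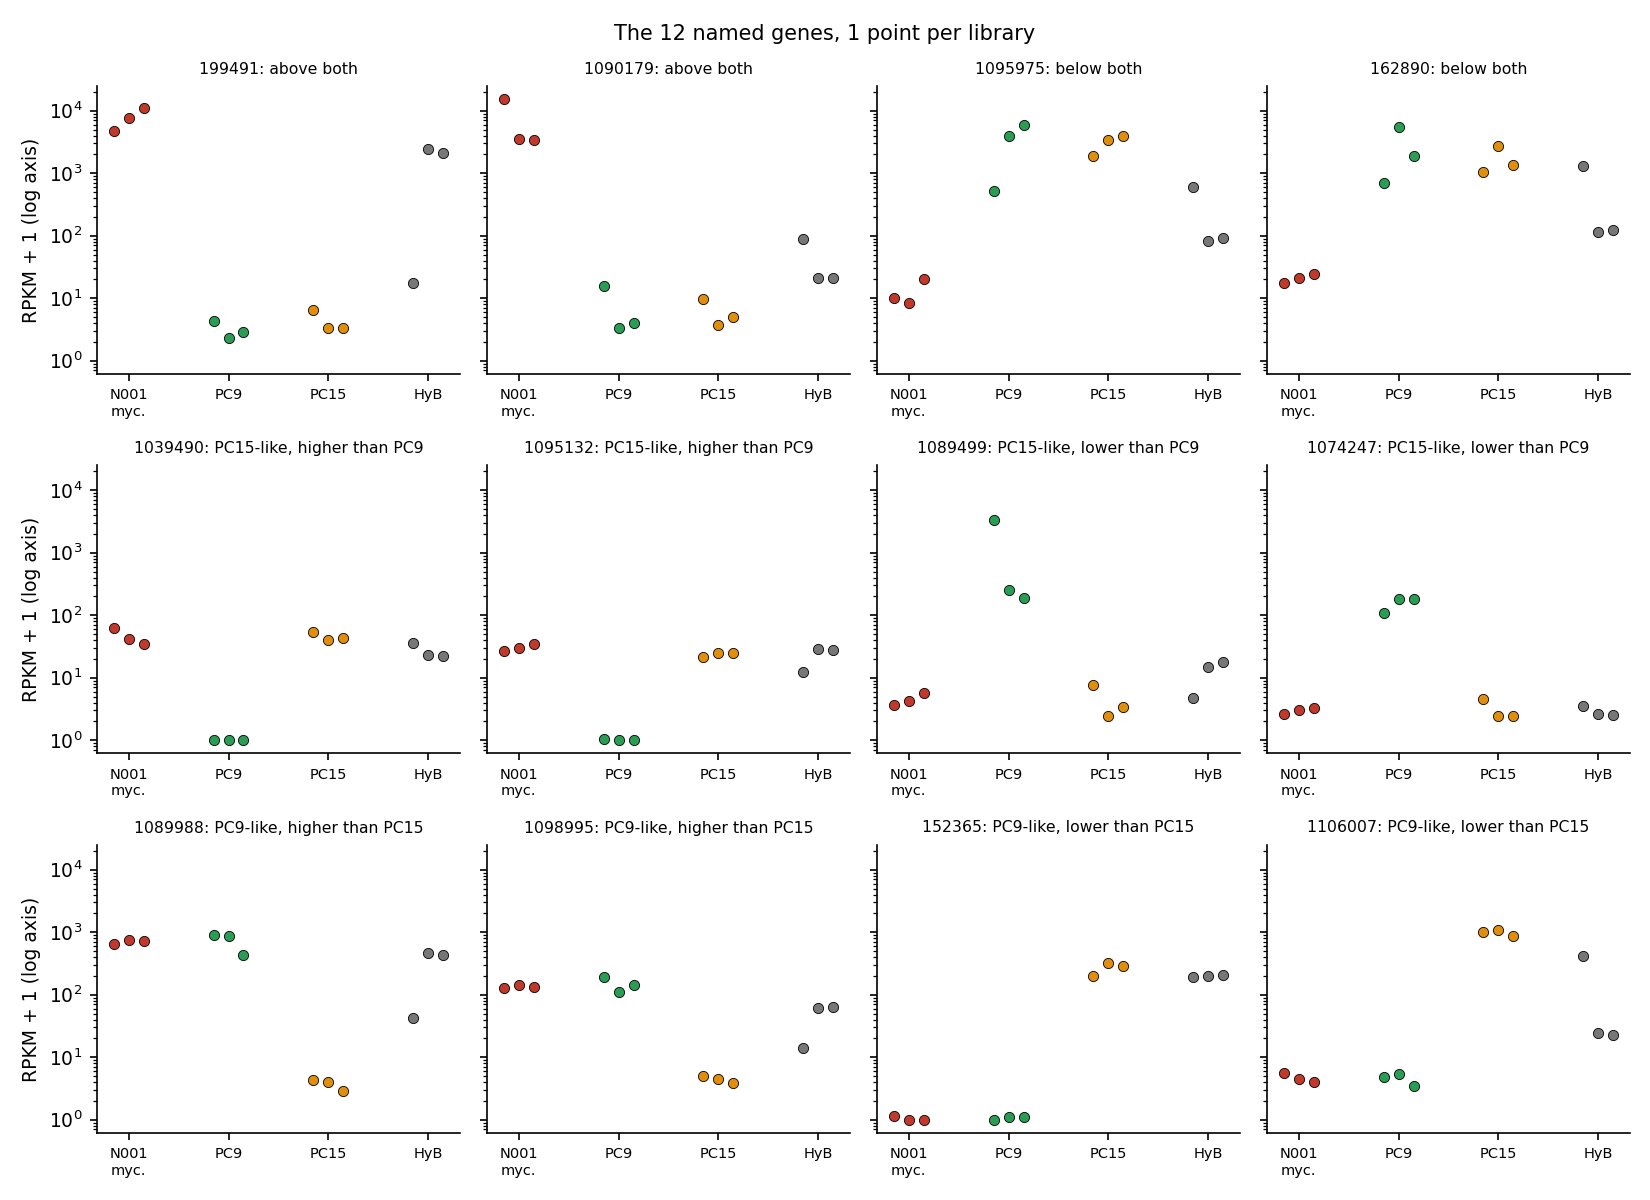
RPKM plus 1 on a log axis for the 12 genes chosen by rule, 1 point per library, in N001 mycelium, PC9, PC15 and HyB. In the top row N001 lies beyond both monokaryons, in the middle row it lies with PC15, and in the bottom row with PC9. In gene 199491 the 3 N001 points lie between 4733 and 10929 RPKM, and HyB replicate 1 lies far below the other HyB libraries.

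Genes fully switched between the dikaryon and its monokaryons were few. With "on" meaning at least 10 RPKM in all 3 libraries of a group and "off" meaning under 1 RPKM in all 3, 15 genes were on in N001 mycelium and off in both monokaryons. Their median was 33.5, 66.3 and 54.5 RPKM in the N001 libraries, against 0.19, 0.15 and 0.13 RPKM in PC9 and 0.56, 0.24 and 0.23 RPKM in PC15. In HyB the median of the same genes was 8.11, 54.7 and 54.1 RPKM, and 7 of the 15 were on in all HyB libraries. In primordium 4 of the 15 were on and 3 off, and in fruitbody 5 were on and 4 off. The opposite pattern, off in N001 and on in both monokaryons, was seen in 3 genes, which were off in primordium and fruitbody as well.

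The other groups show how far these classes extended beyond N001 mycelium. All of these values are set against the same PC9 and PC15 libraries, so they are given side by side and not tested against each other. The genes above both had a median level of 33.6, 49.3 and 45.1 RPKM in the N001 mycelium libraries and 14.99, 36.6 and 36.8 RPKM in the HyB libraries. In PC9 the median was 6.27, 4.45 and 4.72 RPKM and in PC15 6.94, 4.60 and 4.72 RPKM. HyB replicates 2 and 3 were thus inside the N001 range and replicate 1 was lower. Replicates 2 and 3 hardly differed from each other in HyB, nor did they in primordium, so their agreement is not counted as added support. Primordium (15.5, 12.4 and 12.7 RPKM) and fruitbody (9.60, 11.1 and 9.75 RPKM) lay between mycelium of N001 and the monokaryons. These genes nonetheless held 24.04% to 26.8% of the reads in genes in primordium and 23.3% to 28.6% in fruitbody.

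For the genes below both the median was 10.5, 12.5 and 13.5 RPKM in N001 mycelium, against 32.3, 35.3 and 38.7 RPKM in PC9 and 39.0, 36.3 and 36.6 RPKM in PC15. HyB had 24.3, 17.3 and 18.2 RPKM, with replicate 1 again closest to the monokaryons. Primordium (14.6, 14.93 and 14.96 RPKM) and fruitbody (12.4, 14.04 and 13.7 RPKM) were close to the N001 mycelium range.

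**Figure D3:**
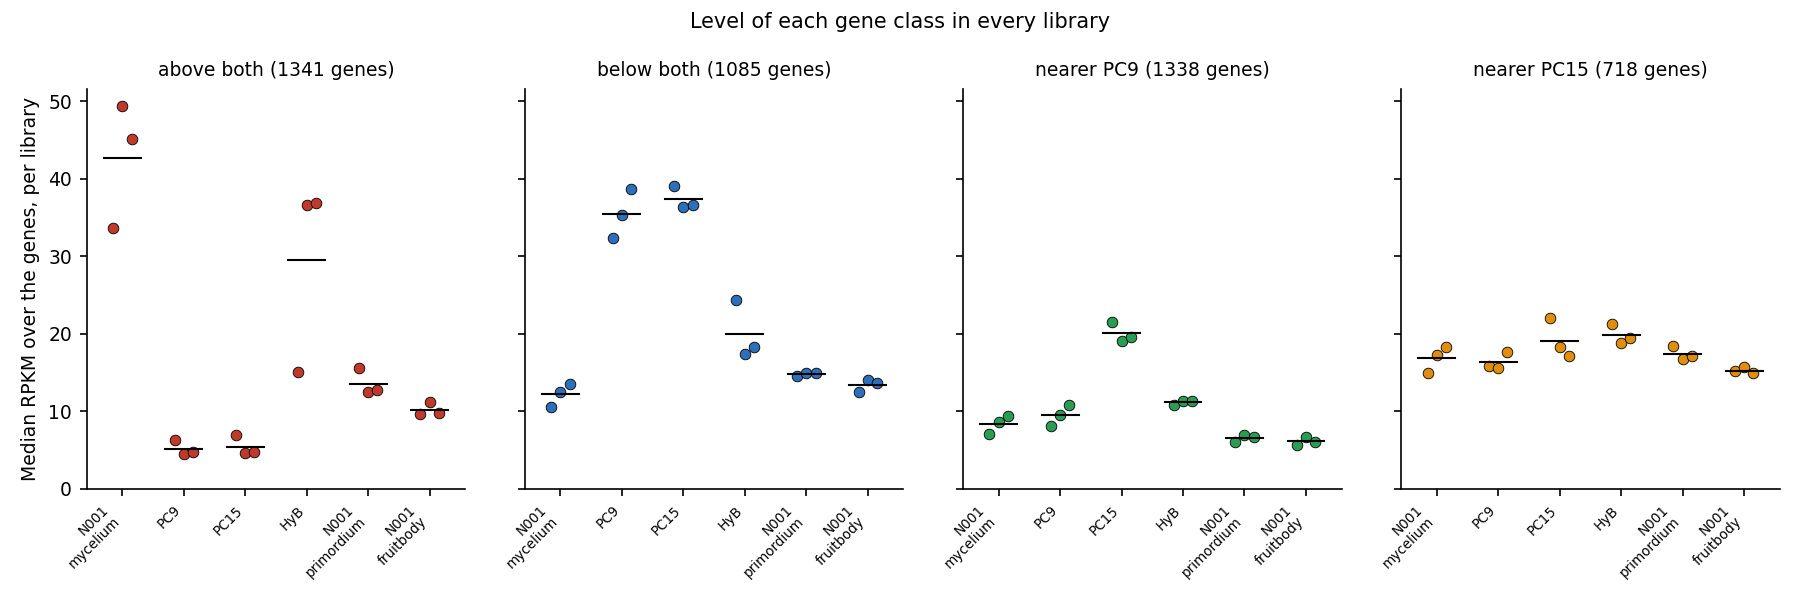
Median RPKM over the genes of each class in every mRNA library, with a bar at the mean of the 3 libraries. The classes were defined from N001 mycelium, PC9 and PC15, so the order of those groups is set by the definition. HyB, primordium and fruitbody were not used in it. For the genes above both, HyB replicates at 36.6 and 36.8 RPKM lie within the range of the N001 mycelium points and replicate 1 at 14.99 RPKM lies below them.

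Of the 5110 genes called different between PC9 and PC15, 4306 were not outside both in N001 mycelium. Each of these was given a position, with 0 at the PC15 mean and 1 at the PC9 mean of log2(RPKM + 1), and was assigned to a side only when N001 differed from the midpoint in limma's test, which 50.1% of all tested genes passed. N001 was nearer PC9 in 1338 genes (12.4% of all tested), nearer PC15 in 718 (6.63%), and the side was not resolved in 2250. Without the test, 2581 of the 4306 lay on the PC9 side. The N001 mean lay between those of the monokaryons in 2669, beyond PC9 in 1030 and beyond PC15 in 607, the last pair without being called outside both. Nearer PC9 outnumbered nearer PC15 in the main fit and in all of the alternatives run, narrowest in edgeR on recovered reads, with 969 against 838. The filter favoured this order: 300 of the 1338 genes were under 1 RPKM in all N001 and PC9 libraries and passed through PC15 alone. Such genes had little room to fall nearer PC15, and 0 of the 718 passed that way. By contrast, 12 of the 718 passed through PC9 alone. Without both kinds, left out after seeing the data, the counts were 1038 and 706. The alternatives, edgeR among them, were not counted without these genes, so their shared order is partly set by the filter.

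The side depended on which monokaryon was higher. Where PC9 was higher (1453 genes) N001 was nearer PC9 in 279 and nearer PC15 in 379, and the median position was 0.383. Where PC15 was higher (2853 genes) it was nearer PC9 in 1059 and nearer PC15 in 339, and the median position was 0.768. In both cases N001 mycelium lay more often with the monokaryon of lower mRNA, 1438 genes against 618 with that of higher mRNA, or 1126 against 618 without the genes that passed the filter through 1 monokaryon alone. This excess depended on the scale and on the tool. Without the test, 838 of the 1453 genes with PC9 higher lay on the lower side on the log2 scale. So did 1966 of the 2853 with PC15 higher. On plain RPKM, where the midpoint is the arithmetic mean, these counts were 963 and 2236, or 3199 of the 4306 genes. That midpoint is never below the log2 one, so its counts could not be smaller. In edgeR on recovered reads 898 genes were nearer the lower and 909 nearer the higher monokaryon, and in DESeq2 1201 and 966. These tools add no pseudocount of 1 RPKM and also scale the libraries differently. The median of N001 minus PC15 was -0.02 in edgeR and -0.05 in DESeq2, against -0.29 in the main fit. Which of these changes mattered was not tested.

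By level, the excess was largest where the lower monokaryon had at least 20 RPKM, with 472 genes nearer the lower and 106 nearer the higher. At 5 to under 20 RPKM the counts were 391 and 155. Between 1 and 5 RPKM they were 196 and 185, and under 1 RPKM 379 and 172. The last pair holds the 300 genes that passed the filter through PC15 alone and the 12 that passed through PC9 alone. All of these were nearer the lower monokaryon, a side the filter favoured, so no excess is read from that pair. Among the 92 genes in which the monokaryons were at least 5 log2 units apart, 54 were nearer PC9 and 23 nearer PC15. Genes that passed through 1 monokaryon alone were not left out of these counts.

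**Figure D4:**
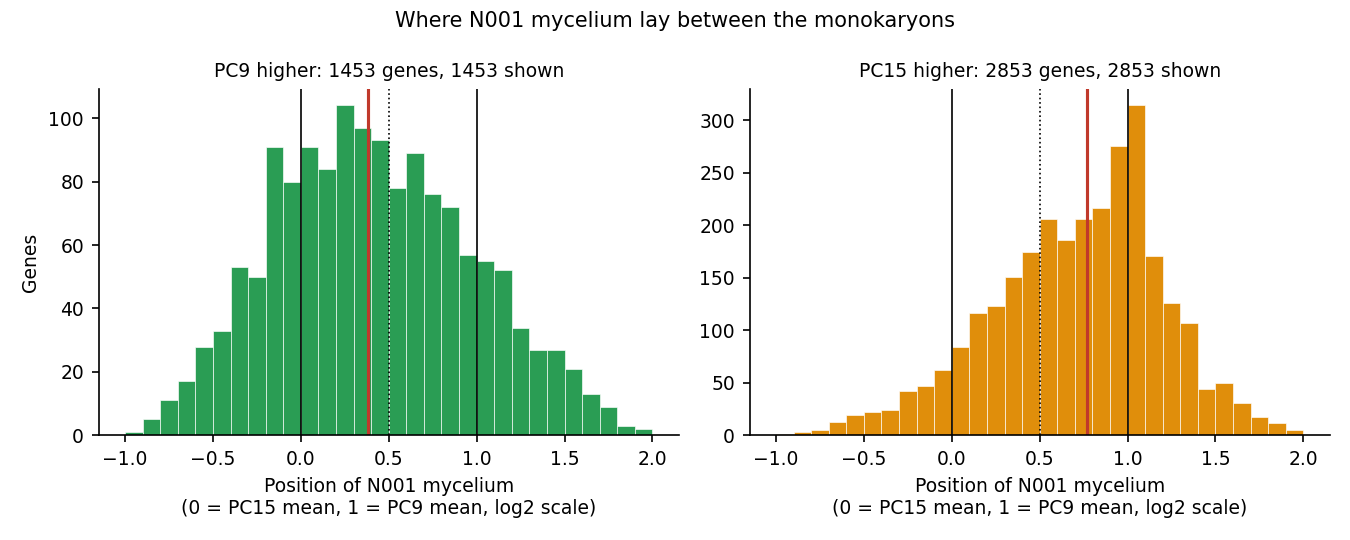
Histogram of the position of N001 mycelium between the monokaryons for the 4306 genes called different between PC9 and PC15 and not outside both. Left, the 1453 genes with PC9 higher; right, the 2853 with PC15 higher. Thin lines mark the PC15 mean at 0 and the PC9 mean at 1, the dotted line the midpoint, and the red line the median, at 0.383 on the left and 0.768 on the right.

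Among genes with a PC15-like level, gene 1039490 (scaffold 4, positions 3282579 to 3283037) had 62.1, 40.8 and 33.8 RPKM in N001 mycelium, against 0 in the 3 PC9 libraries and 52.9, 39.4 and 41.6 RPKM in PC15. PC9 held no read of it, so N001 was at least 498-fold higher than the level that 3 reads over the PC9 group would give (limma adjusted p of 3.39e-07). The gene had no methylation value in PC9 either. Gene 1095132 (scaffold 11, positions 2848602 to 2852506) had 25.7, 29.1 and 33.9 RPKM in N001 mycelium, against 0.041, 0 and 0 RPKM in PC9 and 20.1, 24.005 and 23.8 RPKM in PC15. Its 4 PC9 reads all came from replicate 1, and it too lacked a PC9 methylation value. N001 exceeded PC9 by 4.91 ± 0.21 (SE) on the log2 scale (limma adjusted p of 2.14e-07), and its difference from PC15 of 0.37 did not pass (adjusted p of 0.166).

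In the opposite direction, gene 1074247 (scaffold 2, positions 337782 to 339658) had 1.61, 2.08 and 2.31 RPKM in N001 mycelium, against 107, 179 and 179 RPKM in PC9 and 3.48, 1.41 and 1.42 RPKM in PC15. N001 and PC15 overlapped and PC9 stood alone, with N001 below it by -5.67 ± 0.32 (SE) on the log2 scale (limma adjusted p of 9.23e-07). Gene 1089499 (scaffold 5, positions 1748984 to 1750178) had 2.70, 3.23 and 4.78 RPKM in N001 mycelium, against 3287, 250.2 and 187 RPKM in PC9 and 6.75, 1.43 and 2.34 RPKM in PC15. PC9 replicate 1 was far above the other PC9 libraries. The difference from PC9 was -6.90 ± 0.92 (SE) on the log2 scale (limma adjusted p of 0.000236) and -5.60 without that library (adjusted p of 1.27e-05). This gene lay 577 bases from a listed transposable element.

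Among genes with a PC9-like level, gene 1089988 (scaffold 7, positions 12654 to 14377) had 636, 764 and 730.1 RPKM in N001 mycelium, against 888, 884 and 426 RPKM in PC9 and 3.28, 2.95 and 1.87 RPKM in PC15. The N001 libraries fell inside the PC9 range and were higher than PC15 by 7.60 ± 0.30 (SE) on the log2 scale (limma adjusted p of 6.28e-08). HyB had 40.7, 471 and 429.9 RPKM. Gene 1098995 (scaffold 1, positions 1582706 to 1583850) had 126, 143 and 133 RPKM in N001 mycelium, against 194, 109 and 143 RPKM in PC9 and 3.99, 3.47 and 2.89 RPKM in PC15. Its difference from PC15 was 4.93 ± 0.22 (SE) on the log2 scale (limma adjusted p of 1.29e-07).

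Gene 1106007 (scaffold 6, positions 2432971 to 2434041) was PC9-like on the low side. It had 4.56, 3.40 and 2.98 RPKM in N001 mycelium, against 3.85, 4.32 and 2.46 RPKM in PC9 and 1013, 1070.2 and 875 RPKM in PC15. N001 and PC9 overlapped, and N001 was below PC15 by -7.74 ± 0.22 (SE) on the log2 scale (limma adjusted p of 1.83e-08). Its methylation was under 1% in all libraries of the 3 groups. Gene 152365 (scaffold 1, positions 4193343 to 4193772) had 0.155, 0 and 0 RPKM in N001 mycelium, against 0, 0.095 and 0.104 RPKM in PC9 and 196, 323 and 291 RPKM in PC15. The difference from PC15 was -7.98 ± 0.24 (SE) on the log2 scale with 1 RPKM added (limma adjusted p of 1.83e-08). HyB kept it near the PC15 level, at 193, 197 and 208 RPKM. CG methylation of this gene was 72.7%, 71.9% and 72.6% in N001 mycelium, against 27.4%, 28.1% and 26.3% in PC15, and 8.47%, 1.93% and 9.02% in HyB. PC9 had no methylation value for it.

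The pattern of gene 152365 recurred among the genes that were on in one monokaryon and off in the other. In 171 genes PC15 was on and PC9 off, and in 19 genes PC9 was on and PC15 off. Of the 171, N001 mycelium had 75 off, 37 on and 59 between. Its level over all 171 had a median of 5.32% of that in PC15. Of the 19 genes on in PC9, N001 had 7 on, 2 off and 10 between, and its level had a median of 16.8% of that in PC9. The monokaryons fix neither split, since N001 was not used to pick these genes.

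CG methylation, measured in separate libraries and not used to choose these genes, differed between these states. In the 75 genes off in N001 mycelium, median methylation was 65.5%, 62.9% and 65.2% in the N001 libraries, against 21.1%, 20.7% and 22.9% in PC15. In PC9, where 43 of the 75 genes had a value, it was 65.1%, 64.8% and 65.4%. In N001, 71 of the 75 genes exceeded 10% methylation. The N001 and PC15 medians did not overlap, and of the 43 genes that could be tested 41 were called more methylated in N001 than in PC15 by limma, and 0 less, against a background of 7.24% higher and 1.97% lower among 11140 genes. The count of less methylated genes was also 0 at an unadjusted p below 0.05. Against PC9, 19 of the 43 were called higher and 12 lower, where 3.45% of the 11140 genes were called higher and 3.46% lower.

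The 37 genes on in N001 and the 59 between were mostly unmethylated. Median methylation in N001 was 0.289%, 0.207% and 0.207% over the 37 and 0.283%, 0.219% and 0.235% over the 59, and 5 of the 37 and 9 of the 59 exceeded 10%. Higher methylation than in PC15 was not limited to the genes off in N001: limma called 4 of 12 testable genes on in N001 higher and 0 lower (also 0 at an unadjusted p below 0.05), and 9 of 35 between higher and 3 lower. A transposable element lay within 1 kb of 25 of the 75 genes off in N001, of 5 of the 59 between and of 3 of the 37 on. A PC9 methylation value was missing for 32 of the 75, 24 of the 59 and 25 of the 37, against 252 of all 10828 tested genes (2.33%). Whether PC9 reads could be placed at those genes was not tested, so a level of 0 there is given as listed.

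The 75 genes off in N001 mycelium were not all off in the other dikaryon. HyB had a median of 6.94, 4.68 and 4.98 RPKM over them, against 0 in each of the N001 mycelium libraries, 0 in PC9, and 25.5, 21.9 and 20.6 RPKM in PC15. HyB had at least 1 RPKM in all its libraries in 52 of the 75, and its methylation median was 26.2%, 24.5% and 23.5%. In N001 itself, 71 of the 75 stayed under 1 RPKM in all 9 libraries of mycelium, primordium and fruitbody.

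**Figure D5:**
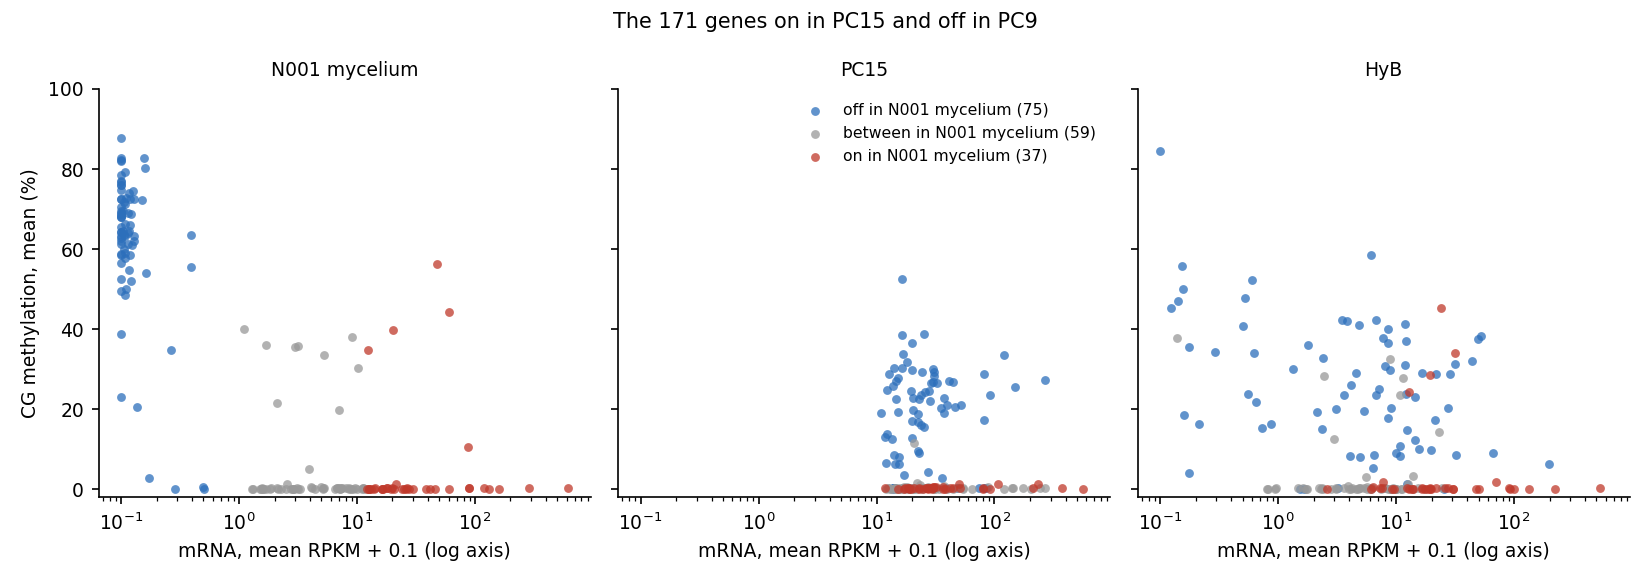
The 171 genes on in PC15 and off in PC9, with mean mRNA (RPKM plus 0.1, log axis) against mean CG methylation, in N001 mycelium, PC15 and HyB. Colour gives the state of the gene in N001 mycelium. The 75 genes off in N001 sit at the upper left of its panel, with 71 above 10% methylation. In the PC15 panel the same genes are on, with lower methylation, and in the HyB panel they spread over the whole mRNA range.

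The share of methylated genes differed between the classes and with the set of genes counted. Of 11646 listed genes with a value, 1002 (8.60%) exceeded 10% methylation in N001 mycelium, against 2.997% of the tested genes with values in all 9 libraries. These sets differ both by the mRNA filter and by the need for a value in every library. Among the 1213 such genes nearer PC9, 173 exceeded 10% in N001, but 140 of these passed the filter through PC15 alone. Among the genes nearer PC9 that did not, 3.21% exceeded 10% in N001 mycelium, 2.53% in PC9 and 1.46% in PC15. The same shares over all tested genes that did not pass through PC15 alone were 1.65%, 1.46% and 0.752%. With or without a methylation value, the genes nearer PC9 that did not pass through PC15 alone had a transposable element within 1 kb in 2.22%, as did 2.22% of all such tested genes. Among genes above both, 0.91% exceeded 10% methylation in N001 mycelium, 1.06% in PC9 and 0.38% in PC15, and 1.42% had a transposable element within 1 kb. For the genes below both the shares over 10% were 2.03%, 1.47% and 1.11% in N001 mycelium, PC9 and PC15. Genes nearer PC15 had 3.43%, 3.43% and 1.49%.

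Small RNA reads at genes were counted in libraries of their own. Of the 780 genes above both with enough small RNA reads to test, 569 had more small RNA in N001 mycelium than in PC9 (72.9%, edgeR) and 2 had less, where 15.1% of 6620 genes were called higher. Against PC15, 551 were higher and 2 lower, with 16.3% called higher over all. A gene could enter this test through the reads of 1 group alone. Those that entered through N001 alone could hardly be called lower, and their number was not counted. The median small RNA level of genes above both was 18.2, 22.6 and 22.8 RPM (small RNA reads scaled to library size) in N001 mycelium, against 1.39, 4.70 and 3.75 RPM in PC9 and 2.28, 3.12 and 3.32 RPM in PC15. For gene 199491 the small RNA libraries held 619, 1044 and 1621 reads in N001 mycelium, against 11, 1 and 2 in PC9 and 9, 1 and 1 in PC15.

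Of the 712 testable genes below both, 333 had less small RNA in N001 than in PC9 (46.8%, background 11.7%) and 303 less than in PC15 (42.6%, background 15.4%), by edgeR. Genes that entered through a monokaryon alone favour such calls and were not counted either. Their median small RNA level was 6.06, 7.96 and 8.05 RPM in N001 mycelium, against 4.35, 23.5 and 23.7 RPM in PC9 and 11.4, 10.9 and 9.97 RPM in PC15. PC9 replicate 1 was thus below all 3 N001 libraries and the other monokaryon libraries were above them. These calls depended on scaling: set against the sum of gene and transposable element reads instead of by TMM, they were 111 and 73, whereas those above both were 476 and 572. Calls over all tested genes fell as well under that scaling, as given in the closing section. PC9 replicate 1 stood apart here too, with 3888904 small RNA reads in genes against 1186956 and 742972 in the other PC9 libraries. Without it, 731 and 694 genes above both and 382 and 368 below both were called in the direction of their mRNA. Calls over all tested genes, in either direction, rose too, from 1777 to 2395 against PC9 and from 2099 to 2729 against PC15. Small RNA and mRNA fragments of the same transcript cannot be told apart in these counts. Among 758 testable genes nearer PC9, small RNA was lower than in PC15 in 287 (37.9%, background 15.4%) and higher in 149 (19.7%, background 16.3%). Among 377 nearer PC15 it was lower than in PC9 in 150 (39.8%, background 11.7%) and higher in 90 (23.9%, background 15.1%).

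Members of a class tended to lie next to each other on the scaffolds. The next tested gene was also above both for 21.03% of the genes above both, against 12.4% of all tested genes. The corresponding shares were 15.7% against 10.02% for genes below both, 23.7% against 12.4% for genes nearer PC9 and 10.03% against 6.63% for genes nearer PC15. The share for genes nearer PC9 includes the 300 that passed the filter through PC15 alone. Neighbouring genes may share reads or overlap, which the tables do not resolve.

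The longest stretch of adjacent tested genes nearer PC9 held 10 genes on scaffold 11, positions 2050387 to 2082136. Their median was 0.0041 RPKM in N001 mycelium, 0 in PC9 and 6.46 RPKM in PC15, with median methylation of 67.3% in N001 mycelium and 26.9% in PC15. PC9 had no methylation value for 8 of the 10. Of the 10 genes 9 passed the filter through PC15 alone, so their class was largely set by the filter, and the stretch is given as a description. On scaffold 7 there were stretches of 9 such genes, at positions 193597 to 256743 and 2802700 to 2883146, of which 7 and 9 passed through PC15 alone. In the second of these all 9 genes had a PC9 value, and median methylation was 74.4% in N001 mycelium, 69.0% in PC9 and 20.3% in PC15. Scaffold 7 had 19.4% of its tested genes nearer PC9, against 12.4% over all. Both shares include genes that passed through PC15 alone, and the scaffold was not counted without them.

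The longest stretches above both held 5 genes each. That on scaffold 6, positions 983479 to 990422, had a median of 307 RPKM in N001 mycelium, against 3.45 RPKM in PC9 and 4.16 RPKM in PC15, and 36.7 RPKM in HyB. In primordium its median was 1350 RPKM and in fruitbody 1526 RPKM. A stretch on scaffold 5, positions 1017217 to 1023524, had 45.4 RPKM in N001 mycelium, against 5.91 RPKM in PC9 and 3.84 RPKM in PC15, with 52.3 RPKM in HyB, and was at 5.20 RPKM in primordium and 3.63 RPKM in fruitbody. The third, on scaffold 7, positions 1934226 to 1945366, had 88.4 RPKM in N001 mycelium, against 16.4 RPKM in PC9, 16.7 RPKM in PC15 and 16.7 RPKM in HyB. Median methylation was under 1% in all 3 stretches. All of these stretches were found by searching the classes, after their values were known.

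Scaffold 12 had few tested genes. Of its 86 listed genes 32 passed the filter, and 0 were above both, 11 below both (34.4%, against 10% over all), 11 nearer PC9 (34.4%, against 12.4%) and 2 nearer PC15 (6.25%, against 6.63%). Of the 32, 8 passed the filter through PC15 alone. Over the listed genes of the scaffold, tested or not, median methylation was 71.5% in N001 mycelium, 72.2% in PC9 and 15.2% in PC15, with 39.2% in HyB. Of the 24 tested genes that did not pass through PC15 alone, 3 exceeded 10% in N001 mycelium (12.5%). Of the 8 that did, 7 had a value in all libraries and all 7 exceeded 10%.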

How the data were processed

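Gene mRNA was deposited by the authors as RPKM, small RNA as raw read counts per gene and per transposable element copy, and CG methylation as a fraction from 0 to 1 per gene, per the file headers; the fraction was turned into percent here, and its coverage is unknown. The series design states 3 biological replicates. RNA was extracted with a fungal RNA kit and libraries were made with a TruSeq kit, per the labels' protocols. FastQC, STAR 2.3.16 and BS-Seeker 2 are named, per the submitters' processing notes. The genome build, counting program, strand setting, handling of reads with several matches and small RNA tools are not given in the sources used here; reads of antisense, overlapping or near-identical genes therefore cannot be told apart. Positions follow the mRNA table, and the other gene tables list both ends 1 base lower. In 8 rows the mRNA table joins 2 end coordinates.

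For mRNA, a gene had to reach 1 RPKM in 3 or more of the 9 libraries. Under R 4.3.3, limma 3.58.1 with a mean-variance trend was fitted to log2 values after adding a pseudocount of 1 RPKM, with group as its 1 term; differences on this scale understate the change of low genes. P-values were two-sided and adjusted over all genes by the Benjamini-Hochberg method. Whole reads were recovered from RPKM (95.8% to 96.0% of values whole within 0.01 reads) and tested with edgeR 4.0.16 and DESeq2 1.42.0 as alternatives; edgeR called 4753 genes against PC9 and 5428 against PC15. Recovered totals were 19628879 to 30123569 reads over 18 libraries, with 80.1% to 87.3% in genes. For small RNA, edgeR's quasi-likelihood test with TMM scaling was used, and for methylation limma on percent, over genes with a value in all 9 libraries. The limma classes for mRNA, and edgeR for N001 against PC9, were run on simulated mRNA counts. The DESeq2, small RNA and methylation fits were not. The floor of 3 reads covers counting error only. Alternatives were other pseudocounts, filters, scalings and tools, a replicate block, and each library left out in turn.

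Replicate numbers paired PC9 with PC15 by the check used, though the labels give no shared source. Same-numbered libraries of the monokaryons deviated together, with correlations of 0.309, 0.294 and 0.207. N001 did not pair throughout with either: the same-numbered library was the best match for replicates 1 and 3, but not for replicate 2.

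Named genes were at most 2 of each kind and direction: for genes outside both, the largest value of the smaller difference among called genes whose libraries did not overlap, and, for PC9-like and PC15-like genes, the largest difference from the other monokaryon, with no call and under 0.5 log2 from the like one. The comparisons, classes and rules were chosen with earlier results of these data known. Of 11849 RefSeq entries for a PC9 assembly, 0 carried one of the protein numbers.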

Additional observations from a re-analysis of the deposited data

How the results depend on the processing

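Single genes kept their direction and call under all alternatives that gave an adjusted p; DESeq2 gave none for gene 1089499. Leaving out 1 library gave 3697 to 5465 genes called against PC9, 4695 to 6651 against PC15, 1139 to 1551 above both, 777 to 1715 below both, 1025 to 1339 nearer PC9, 538 to 845 nearer PC15, 1068 to 1544 nearer the lower and 489 to 640 nearer the higher monokaryon; the highest values came without PC9 replicate 1. For methylation it gave 721 to 790 calls against PC9 and 972 to 1046 against PC15, and for small RNA 1270 to 2395 and 1552 to 2729. Requiring a difference of 1 log2 left 566 genes below both. Without replicate 1 of all 3 groups, an alternative chosen after seeing the data, 1868 genes were below both and 1091 nearer PC15. edgeR on recovered reads gave 898 genes nearer the lower monokaryon, against 1438, and DESeq2 966 nearer the higher, against 618; a difference of 10 points in methylation left 341 calls against PC9 and 592 against PC15, against 770 and 1025. Scaling small RNA by gene and transposable element reads gave 975 and 1332 calls, against 1777 and 2099, and 111 and 73 of the genes below both. With on at 5 and off under 0.5 RPKM, also chosen after seeing the data, 117 genes were off in N001 and 113 of them over 10% methylation; with on at 20 the set was 83 genes, 33 off in N001, 32 of them over 10%, and 9 genes were on in PC9 and off in PC15. The cause of these changes was not tested.

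Replicate numbers did not pair N001 with the monokaryons throughout. Same-numbered libraries had correlations of 0.060, -0.020 and 0.161 with PC9 and 0.071, 0.018 and 0.126 with PC15. The same-numbered library was the best match for replicates 1 and 3 and not for replicate 2, against both. The fit with a replicate block called 4790 genes against PC9 and 5963 against PC15, with 1380 above both, 1203 below both, 1392 nearer PC9 and 755 nearer PC15. PC9 and PC15, whose numbers did pair by the check, differed in 5306 genes under the block, against 5110. The 3 libraries a group and the unknown methylation coverage limit the precision.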
